A study of Mus musculus with 9 samples.

Results

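The 10 genes described here carry glucose from the blood into the heart muscle cell and through the isoform-specific steps of glycolysis: the glucose transporters Slc2a1 and Slc2a4, the hexokinases Hk1 and Hk2, the phosphofructokinase subunits Pfkl, Pfkm and Pfkp, the enolases Eno1 and Eno3, and the pyruvate kinase Pkm. They were chosen by name, and all 10 had a row among the 33844 transcription start site (TSS) regions of the deposited count table. The measurement was ATAC-seq, in which a transposase cuts and tags open DNA, so a count at a TSS reports how accessible that promoter region was and not how much mRNA was made. Mice of 3 ages were profiled, all CD1 (ICR), at postnatal day 1 (P1), day 14 (P14) and day 56 (P56), with 3 libraries per age labelled as biological triplicates. No genotype difference or treatment between ages is named, although the protocol text mentions an earlier operation without saying whether these hearts had one. Each library came from pooled hearts (12 per P1 library, 6 to 7 for both older ages), and nuclei were sorted with an antibody to Pcm1, a protein of the cardiomyocyte nuclear envelope. The sex of the mice is not given in the sources used here.

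Glucose enters cells through transporters of the GLUT family, is trapped as glucose 6-phosphate by hexokinase, is committed to glycolysis by phosphofructokinase, and is carried on to pyruvate by enolase and pyruvate kinase. Each of these steps has one isoform found in most cells, and often dominant in the fetus, and another enriched in differentiated striated muscle. The fetal heart relies mainly on glucose and lactate, and after birth the heart turns to fatty acids while its glucose uptake comes under the control of insulin and contraction. Slc2a1, Hk1, Pfkl, Pfkp and Eno1 are taken here as the 5 general isoforms, and Slc2a4, Hk2, Pfkm and Eno3 as the 4 muscle isoforms. Pkm has no partner gene, because its fetal and adult muscle enzymes are splice forms of one transcript, which a count at the TSS cannot separate.

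The promoters of the genes on which the comparison turns are printed to let the muscle and general isoforms be read side by side, with each CpG dinucleotide in capitals. The windows are the 250 bases before an annotated start, written 5′ to 3′ on the gene's own strand, from RefSeq on GRCm38.p6. The table held 16 starts of 9 of the 10 genes, all but Slc2a4. For Eno1, the start with most CpG of 3 is shown. For Pfkm, the last of 4 starts is shown, which lies nearest to the Pfkm peak described further on. The printed starts were thus not chosen by the same rule. That peak had the smallest p of those near Pfkm, and no peak covered any of the 4 Pfkm starts.
Eno3, muscle, chr11:70656926-70657175, plus strand: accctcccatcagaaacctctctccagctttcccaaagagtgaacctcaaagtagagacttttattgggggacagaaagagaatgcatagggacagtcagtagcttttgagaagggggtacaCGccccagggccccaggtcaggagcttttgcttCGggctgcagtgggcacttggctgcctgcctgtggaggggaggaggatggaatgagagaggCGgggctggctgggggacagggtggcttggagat
Eno1, general, chr4:150236947-150237196, plus strand: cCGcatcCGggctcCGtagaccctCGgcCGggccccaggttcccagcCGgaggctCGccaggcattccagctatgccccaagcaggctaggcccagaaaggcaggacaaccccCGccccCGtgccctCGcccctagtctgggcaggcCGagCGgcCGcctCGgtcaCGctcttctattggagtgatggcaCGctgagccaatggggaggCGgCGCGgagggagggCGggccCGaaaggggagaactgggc
Pfkm, muscle, chr15:98111810-98112059, plus strand: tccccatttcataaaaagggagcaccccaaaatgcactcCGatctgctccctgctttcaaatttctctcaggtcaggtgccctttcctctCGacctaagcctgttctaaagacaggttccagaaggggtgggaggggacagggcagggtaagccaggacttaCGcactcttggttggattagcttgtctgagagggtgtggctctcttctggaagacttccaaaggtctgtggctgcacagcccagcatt
Pfkp, general, chr13:6648772-6649021, minus strand: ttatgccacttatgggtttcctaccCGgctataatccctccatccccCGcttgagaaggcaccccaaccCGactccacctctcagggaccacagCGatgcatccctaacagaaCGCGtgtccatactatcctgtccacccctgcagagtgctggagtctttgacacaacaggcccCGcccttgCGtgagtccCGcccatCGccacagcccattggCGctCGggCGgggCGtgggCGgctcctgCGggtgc
Hk2, muscle, chr6:82774455-82774704, minus strand: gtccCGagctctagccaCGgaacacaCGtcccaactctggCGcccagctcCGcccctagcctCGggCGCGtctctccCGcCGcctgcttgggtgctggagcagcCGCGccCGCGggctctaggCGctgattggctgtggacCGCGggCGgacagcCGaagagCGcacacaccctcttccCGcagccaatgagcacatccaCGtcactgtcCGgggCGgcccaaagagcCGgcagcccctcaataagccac
The 32851 RefSeq windows of this length had a median of 6 CpG, with quartiles of 2 and 16, and a median GC content of 52.4%. The Eno3 window held 3 CpG at a GC content of 57.2%, and 37.8% of all windows held as many or fewer. The 4 Pfkm windows, of which the middle ones overlap, held 2, 6, 10 and 3 CpG. In contrast, the windows of the general partners held 9, 21 and 19 CpG for the 3 starts of Eno1, the last pair overlapping, 16 for Pfkp, 13 for Pfkl and 13 for Slc2a1. Hk1 was mixed, with 1 CpG at its outer start and 14 at its inner one. The muscle isoform Hk2 did not follow Eno3 and Pfkm: its window held 25 CpG, a number that 90.4% of all windows did not exceed. Pkm had 21 and 18 CpG at its starts.

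Short motifs were searched in the same windows on both strands. The GC box GGGCGG, present in 32.7% of all windows, occurred in those of Slc2a1, Hk2, Pfkp, in 2 of the 3 Eno1 windows and in 1 of the 2 Pkm windows, and in none of the windows of Eno3, Pfkm, Pfkl and Hk1. The M-CAT letters CATTCC, read by the TEAD factors of muscle, were present in 12.6% of all windows, and among these genes in Eno3 and in 2 Eno1 windows. The nuclear receptor half-site AGGTCA, found in 14% of windows, occurred in Eno3, in the printed Pfkm window, in 1 Eno1 window and in 1 Pkm window. The GATA letters AGATAA, found in 9.99% of windows, occurred in the first 3 Pfkm windows. The hypoxia response core ACGTG, in 16.6% of windows, occurred in Slc2a1, Hk2, 2 Pfkm windows and 1 Pkm window. The remaining motifs searched were the E-box CANNTG, which is in 66.2% of all windows and can contain ACGTG, the CCAAT box, in 33.8%, and the TATA box TATAAA, in 12.4% and in none of the 16 starts. A match describes letters in a window and is not evidence of a bound site.

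A P1 library held 1414979 to 2167369 TSS counts, a P14 library 481217 to 893032 and a P56 library 874639 to 1468352, so the P14 values rest on the fewest reads. The lowest count of any of the 10 genes was 8, for Pfkm in P14 replicate 2, and its exact 95% Poisson interval, which covers counting error only, ran from 3.45 to 15.8. Levels are given below as CPM, counts divided by the TMM-scaled total of their library and multiplied by the same constant in all of them. Because the width of the TSS regions is not stated, levels are compared between ages and not between genes. The most accessible 10% of regions took 31.94 to 33.04% of the counts in P1 libraries, 34.07 to 35.32% in P14 libraries and 35.55 to 36.81% in P56 libraries, so signal was more concentrated at P56 than at P1 without overlap. In nuclei pooled from many cells, wider opening of a promoter in each nucleus and a larger share of nuclei with it open cannot be told apart.

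The first question was whether the muscle isoforms were more accessible in the mature heart at P56 than at P1. Of the 4, 3 were: Slc2a4, Pfkm and Eno3 passed an adjusted p of 0.05 in edgeR's quasi-likelihood test over all 33747 tested TSS regions, all higher at P56, whereas 2.53% of all regions were called, 1.72% higher and 0.806% lower. The median log2 difference of the 4 muscle isoforms was 1.02, beside -0.01 for all tested regions. It was 0.68 without P56 replicate 2 and 0.46 without that library and P1 replicate 1. DESeq2's Wald test called Slc2a4 and Eno3 (adjusted p = 0.0263 and 0.0271), did not call Hk2 (adjusted p = 0.220) and gave no adjusted p for Pfkm.

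Slc2a4 (chr11:69942286-69948216 in RefSeq, GRCm38.p6, as for the genes that follow) encodes GLUT4, the transporter that insulin and contraction move to the muscle cell surface. Its TSS had 88.1, 174 and 104 CPM in the 3 P56 libraries, against 29.1, 58.25 and 80.3 CPM in the 3 P1 libraries. Every P56 library lay above every P1 library, and the spread within each age was wide, with means of 122 ± 45.7 CPM at P56 and 55.9 ± 25.7 CPM at P1 (SD, n = 3 each). The difference was 1.15 ± 0.25 on the log2 scale (SE), or 2.22-fold, with an edgeR adjusted p of 0.0130, and it ranked 141st of the 33747 regions by p.

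Hk2 (chr6:82725025-82774454), the hexokinase of insulin-responsive muscle and fat, was the muscle isoform that did not pass. Its TSS had 61.7, 101 and 74.6 CPM at P56, against 46.1, 58.9 and 64.05 CPM at P1, so the lowest P56 library fell below the highest P1 library. The log2 difference was 0.50 ± 0.21 (SE; 95% interval 0.07 to 0.93) with an edgeR adjusted p of 0.165.

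Pfkm (chr15:98092589-98132447) encodes the muscle subunit of phosphofructokinase, the step that commits sugar to glycolysis. It had 29.1, 64.0 and 44.3 CPM at P56, against 16.1, 24.0 and 25.7 CPM at P1. The ages did not overlap, although P56 replicate 1 stood only slightly above the P1 libraries. The difference was 1.09 ± 0.28 on the log2 scale (SE), or 2.12-fold, with an edgeR adjusted p of 0.0317.

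Eno3 (chr11:70653125-70662513) encodes beta-enolase, which replaces the alpha form as striated muscle matures. Its TSS had 59.0, 114 and 73.4 CPM at P56, against 37.4, 44.5 and 47.25 CPM at P1, again with no overlap. Here the P1 libraries were close together (43.1 ± 5.11 CPM) and the P56 libraries spread (82.3 ± 28.7 CPM; SD, n = 3 each). The difference was 0.95 ± 0.22 on the log2 scale (SE), or 1.93-fold, with an edgeR adjusted p of 0.0206.

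**Figure D1:**
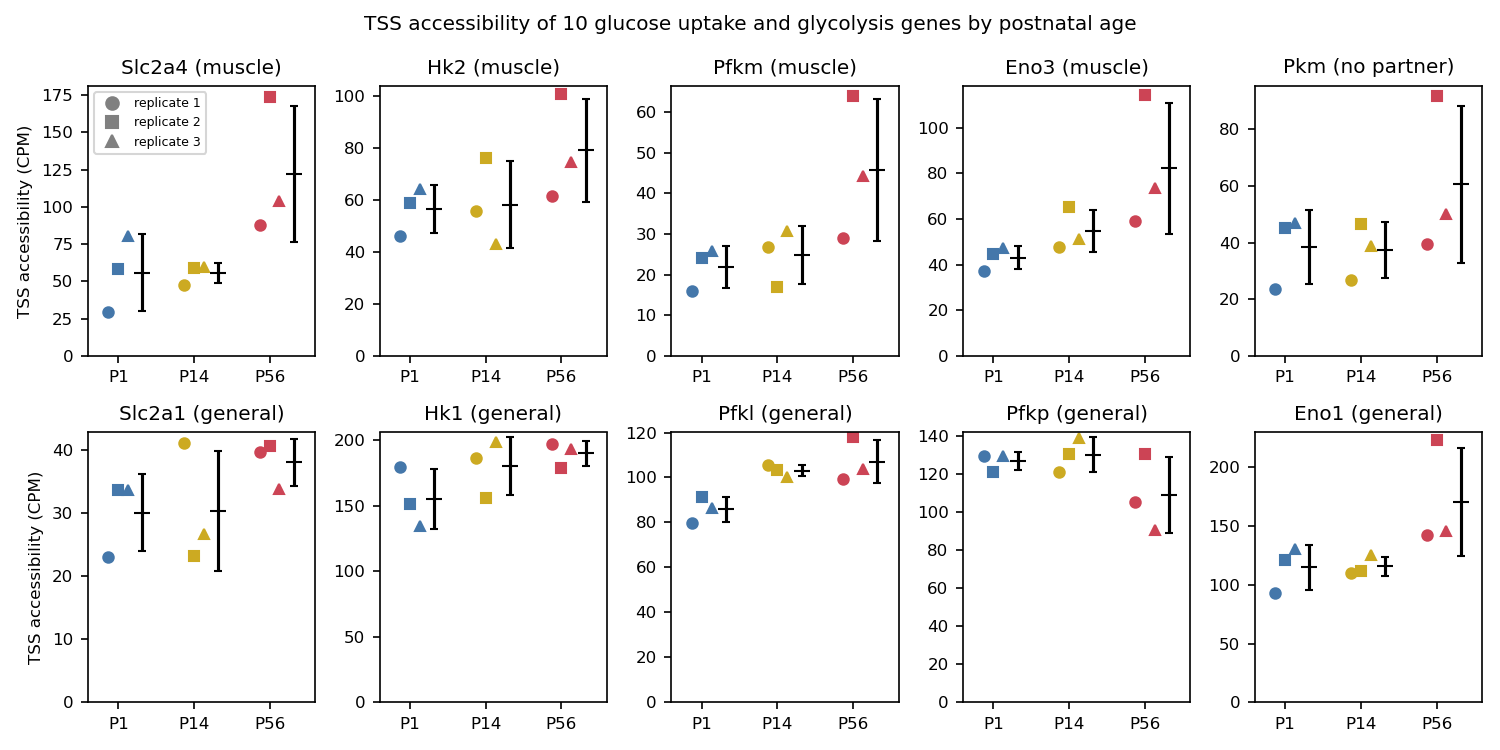
Accessibility at the TSS of each of the 10 genes (vertical axis, CPM, starting at 0) at P1, P14 and P56; each point is a library, its shape is the replicate number, and the black bar is the mean ± SD of 3 libraries. All P56 points lie above all P1 points for Slc2a4, Pfkm, Eno3, Slc2a1, Pfkl and Eno1, and P56 replicate 2 (square) is the highest point in 7 of the 10 panels.

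The general isoforms were compared in the same way, to see whether their promoters were less accessible where those of the muscle isoforms were more so. None of the 5 was called in either direction at P56 relative to P1 by edgeR (1 at an unadjusted p under 0.05, and 0 by DESeq2, which gave no adjusted p for 1 of them). Of the 5 log2 differences, 4 were above 0, and the median was 0.32, so no general isoform fell past the threshold. That median was 0.19 with library totals, 0.18 without P1 replicate 1 and P56 replicate 2, 0.059 with loess offsets, which take out each library's trend with abundance, and 0.037 with the peak table's scaling factors. In the same order, the median of all tested regions was -0.14, 0.0011, 0.0052 and -0.30, and in the main fit it was -0.01. Across all 10 genes, 6 had every P56 library above every P1 library, where 10.9% of all tested regions did, and none had every P56 library below every P1 library, where 13.2% did.

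Slc2a1 (chr4:119108745-119137330) encodes GLUT1, the transporter of basal glucose uptake and the main one of the fetal heart. It had 39.6, 40.6 and 33.8 CPM at P56, against 23.0, 33.6 and 33.6 CPM at P1, groups that touch but do not overlap. The log2 difference was 0.36 ± 0.25 (SE), with a 95% interval of -0.16 to 0.87 and an edgeR adjusted p of 0.415, so a fall of the size seen as a rise in Slc2a4 lies outside the interval.

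Hk1 (chr10:62268855-62379920), the hexokinase of most tissues, had 197, 179 and 193 CPM at P56, against 180, 151 and 135 CPM at P1, and the groups overlapped by a fraction of a CPM. Its log2 difference was 0.29 ± 0.14 (SE; 95% interval -0.01 to 0.58; edgeR adjusted p = 0.243). Pfkl (chr10:77986947-78009807), the liver-type phosphofructokinase subunit, had 99.5, 118 and 104 CPM at P56, against 80.0, 91.1 and 86.6 CPM at P1, without overlap. Its log2 difference was 0.32 ± 0.16 (SE; edgeR adjusted p = 0.232).

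Pfkp (chr13:6579874-6649060), the platelet-type subunit, was the only one of the 10 genes with a difference below 0. It had 106, 131 and 90.9 CPM at P56, against 130, 121 and 130 CPM at P1, so P56 replicate 2 lay above all P1 libraries and the other two P56 libraries below them. The log2 difference was -0.21 ± 0.16 (SE; 95% interval -0.53 to 0.11; edgeR adjusted p = 0.447).

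Eno1 (chr4:150236708-150248879) encodes alpha-enolase, the form of most cells and of the embryo. It had 142, 223 and 146 CPM at P56, against 93.0, 121 and 130 CPM at P1, and the groups did not overlap. The log2 difference was 0.58 ± 0.17 (SE), or 1.50-fold, with an edgeR adjusted p of 0.0553, just short of a call. Pkm (chr9:59656576-59679372), which makes pyruvate, had 39.6, 91.8 and 50.1 CPM at P56, against 23.5, 45.2 and 46.7 CPM at P1. Its log2 difference was 0.69 ± 0.28 (SE; edgeR adjusted p = 0.148) and the groups overlapped. Of the genes not called, 5 had a log2 difference that moved by over 1.5 times when a single library was left out: without P56 replicate 2 it was 0.23 for Pkm, 0.27 for Hk2, 0.33 for Eno1 and -0.36 for Pfkp, and without P1 replicate 1 it was 0.40 for Pkm and 0.17 for Slc2a1. For Pfkp it was -0.10 without P56 replicate 3.

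**Figure D2:**
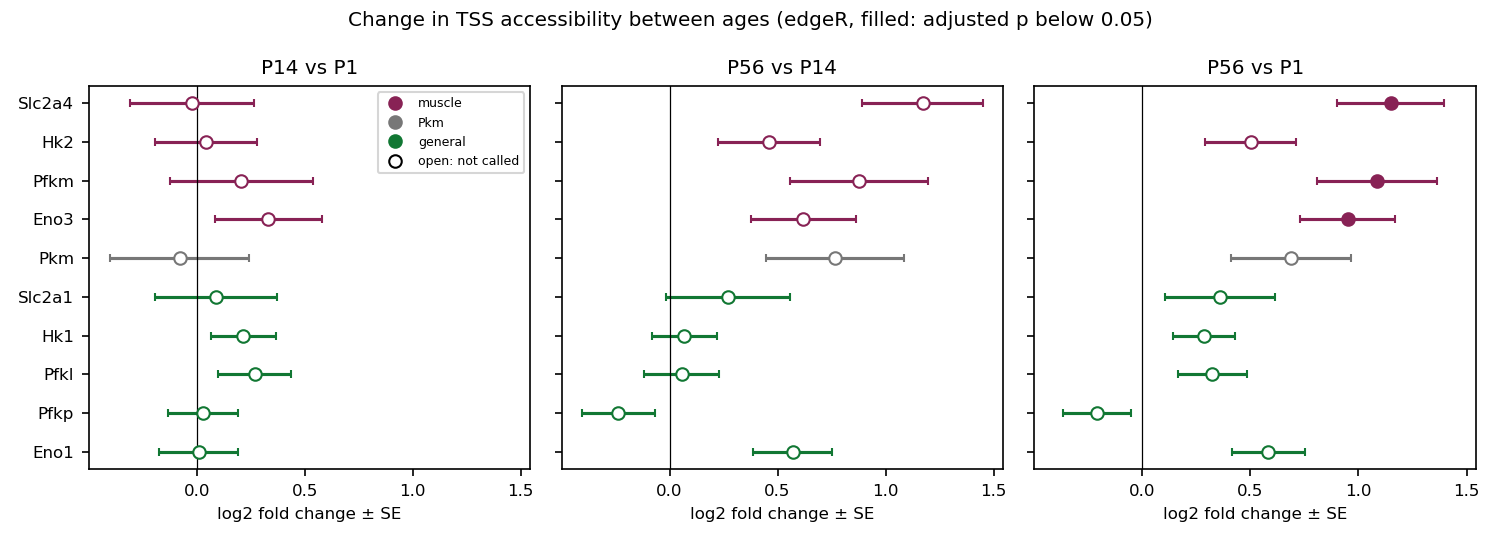
Log2 fold change ± SE (horizontal axis, the same in the 3 panels) of each gene between ages; filled points have an edgeR adjusted p below 0.05 and open points do not. The filled points are Slc2a4 at 1.15, Pfkm at 1.09 and Eno3 at 0.95 in P56 vs P1, and Pfkp is the one gene left of 0 there.

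The 3 calls depended on particular libraries, and so did calls over all TSS regions. The share of all regions called was 2.53% with every library and 0.435% without P56 replicate 2. It was 0.737% without P1 replicate 1, 0.654% without P1 replicate 2 and 2.06% without both P56 replicate 2 and P1 replicate 1. It was 1.34% without P14 replicate 1, 1.2% without P56 replicate 3, 1.95% without P1 replicate 3 and 4.5% without P56 replicate 1. Of the 10 genes, 7 had their highest level in P56 replicate 2 and 7 their lowest in P1 replicate 1. Without P56 replicate 2, the log2 difference was 0.79 for Slc2a4, 0.74 for Pfkm and 0.62 for Eno3, and none passed (edgeR adjusted p = 0.0880, 0.199 and 0.158). Without P1 replicate 1 the differences were 0.80, 0.87 and 0.84 and again none passed (edgeR adjusted p = 0.0621, 0.116 and 0.0740). Without both, they were 0.43 for Slc2a4, 0.51 for Pfkm and 0.50 for Eno3, above 0 and not called (edgeR adjusted p = 0.189, 0.324 and 0.189). Leaving out P1 replicate 2 also ended all 3 calls, with differences of 1.17, 1.142 and 0.97 that were no smaller (edgeR adjusted p = 0.0553, 0.0798 and 0.0675). The Pfkm call ended as well without P14 replicate 1 (edgeR adjusted p = 0.0526) and without P56 replicate 3 (edgeR adjusted p = 0.0661). Eno1 was called higher without P1 replicate 3 (log2 0.68, edgeR adjusted p = 0.0451) and without P56 replicate 1 (log2 0.70, edgeR adjusted p = 0.0214).

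The calls also moved with the scaling. With the scaling factors of the peak table the median of all TSS regions shifted to -0.30 on the log2 scale, 204 regions were called higher and 2300 lower, and Pfkm missed the threshold (log2 0.79, edgeR adjusted p = 0.0506) while Slc2a4 and Eno3 passed. With library totals alone the median was -0.14, with 319 called higher and 778 lower, and all 3 muscle isoforms passed. With loess offsets Slc2a4 passed, and Pfkm (log2 0.91, edgeR adjusted p = 0.101) and Eno3 (log2 0.72, edgeR adjusted p = 0.0914) did not. Hk1 turned to -0.01 with the peak table's factors and to -0.03 with the offsets. The signal share of the most accessible regions separates P56 from P1 completely. With it as a covariate, whose slope then comes from the differences between libraries of the same age, no region was called and Slc2a4, Pfkm and Eno3 had values of -0.55, -0.19 and -0.67. Between P56 and P1, age and signal concentration cannot be told apart.

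**Figure D3:**
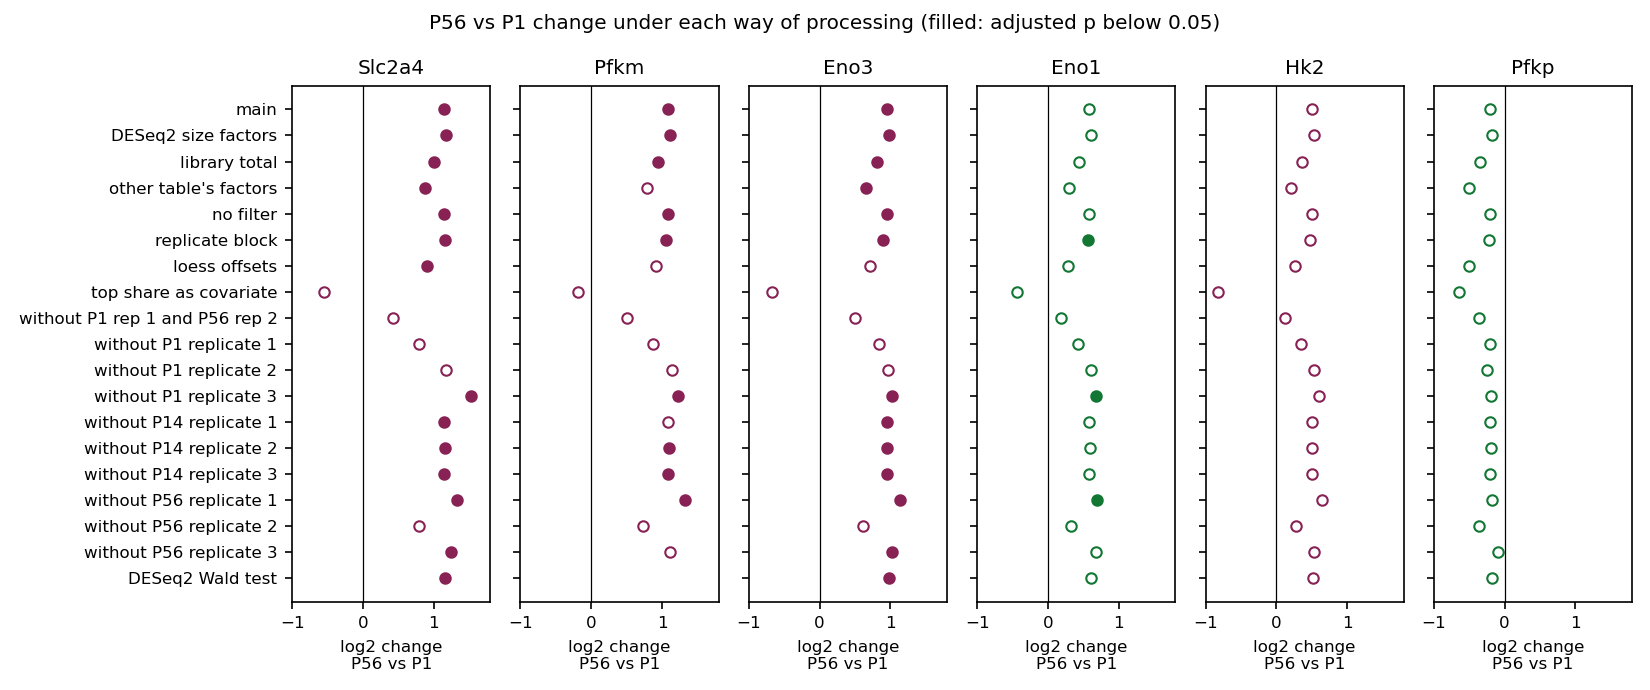
Log2 P56 vs P1 difference (horizontal axis) of 6 of the genes under the main processing (top row) and each alternative; filled points have an adjusted p below 0.05. Slc2a4, Pfkm and Eno3 lie right of 0 in every row but the covariate one, and turn from filled to open in the rows without P1 replicate 1, P1 replicate 2 or P56 replicate 2.

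Markers of heart muscle moved with the muscle isoforms. Of 10 cardiomyocyte genes, 6 were called higher at P56 (Tnni3, Myl3, Myl2, Tnnt2, Myh6 and Ttn), with a median log2 difference of 0.83 for the list, and DESeq2 called 3 and gave no adjusted p for 2. Without P56 replicate 2 edgeR called 0 of them (median 0.44), without P1 replicate 1 or P1 replicate 2 it called 1, without P14 replicate 2 or 3 it called 3, and without both P1 replicate 1 and P56 replicate 2 it called 0 (median 0.11). With loess offsets it called 0 (median 0.57), and with the top-share covariate 0 (median -1.09). The share of all regions called was 2.53% in the main fit and 0.435% without P56 replicate 2. It was 0.737 and 0.654% without P1 replicate 1 or 2, and 1.42 and 1.47% without P14 replicate 2 or 3. It was 2.06% without both libraries, 0.708% with loess offsets and 0% with the covariate. The summed TSS level of the 10 cardiomyocyte genes was 1010, 2493 and 1348 CPM at P56, against 568.8, 921 and 1128 CPM at P1, so the library highest in Slc2a4 was also highest in these genes and the lowest was also lowest. None of the other cell types' lists had a member called lower, and 1 gene was called higher, Smtn of the smooth muscle and pericyte list. The summed level at P56 and at P1 was 363.5 to 418.4 and 306.1 to 379.4 CPM for 8 endothelial genes, 284.4 to 308.3 and 287.2 to 333.4 CPM for 8 fibroblast genes, and 200.2 to 231.8 and 202.1 to 239.4 CPM for 8 leukocyte genes. It was 361.2 to 430.4 and 268.3 to 281 CPM for 8 smooth muscle and pericyte genes, and 120 to 143.6 and 116.6 to 141.2 CPM for 5 erythroid genes. In the lists with no call, 2 endothelial, 3 fibroblast, 1 leukocyte and 1 erythroid gene had an unadjusted p under 0.05 in edgeR. DESeq2 called 0 in these lists but gave no adjusted p for 4 of 8 endothelial, 5 of 8 fibroblast, 6 of 8 leukocyte and 4 of 5 erythroid genes. No marker was at 0 in any library, and the part of these differences in the results for the 10 genes was not tested.

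The P14 libraries place the difference in time only loosely. At P14 relative to P1 none of the 10 genes was called by edgeR, none had an unadjusted p under 0.05 and none was called by DESeq2, in a comparison that called 0.0119% of all regions. Slc2a4 had 47.8, 59.1 and 59.4 CPM at P14, inside the P1 range given above, and a log2 difference of -0.02. Pfkm had 26.7, 16.9 and 30.7 CPM at P14 and a difference of 0.21, and Eno3 had 47.8, 65.4 and 51.2 CPM and a difference of 0.33. For Eno3 and Pfkl, 2 of the 10 genes, every P14 library lay above every P1 library, where 9.02% of regions did, and for none below, where 7.87% did. Pfkl, at 106, 103 and 100.4 CPM, differed by 0.27 on the log2 scale. The median log2 difference was 0.12 for the muscle isoforms and 0.09 for the general ones.

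At P56 relative to P14, a comparison that called 0.00296% of regions, edgeR and DESeq2 again called none of the 10 genes, and 5 had an unadjusted p under 0.05. The share of all regions with such a p is not given here. For Slc2a4 and Eno1 every P56 library lay above every P14 library, where 7% of regions did, and for none below, where 6.96% did. Slc2a4 was 1.17 ± 0.28 higher on the log2 scale (SE; edgeR adjusted p = 0.209), a size close to its P56 vs P1 difference, with which it shares the P56 libraries. It was called when P1 replicate 1 was left out (edgeR adjusted p = 0.00774), without P56 replicate 1 (edgeR adjusted p = 0.0255) and with the peak table's factors (edgeR adjusted p = 0.0461). Pfkm was 0.88, Pkm 0.77, Eno3 0.62 and Eno1 0.57 higher on the log2 scale, with edgeR adjusted p of 0.357, 0.416, 0.393 and 0.315. The median was 0.75 for the muscle isoforms and 0.07 for the general ones. A direct test of timing, the P14 minus P1 difference less the P56 minus P14 difference, called none of the 10 genes in edgeR (1 at an unadjusted p under 0.05, 0 by DESeq2) and 0.00889% of all regions. Whether the opening came before or after P14 was therefore not resolved for any gene.

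To compare isoforms directly, the log2 ratio of the muscle to the general isoform's counts was taken within each library, which removes any common scaling. For 5 pairs the 3 ages, P14 included, were compared by exact permutation of the libraries. All assignments to ages were used with F as the statistic, and the smallest possible p was 0.00357. Unless stated, an exact permutation p is of this test over 3 ages and not of the P56 minus P1 difference beside it. The mean ratio was higher at P56 than at P1 in all 5 pairs, and none passed 0.05 after adjustment over the 5. The largest difference was that of Pfkm over Pfkp, at -1.30 ± 0.47 at P56 and -2.55 ± 0.39 at P1 (SD, n = 3 each), a difference of 1.25 or 2.37-fold. Its P56 libraries were at -1.85, -1.03 and -1.03 and its P1 libraries at -2.998, -2.32 and -2.32, without overlap, and its exact permutation p was 0.0179, or 0.0893 after adjustment. Leaving out P1 replicate 1 gave a difference of 1.02 and an exact permutation p of 0.0714.

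Eno3 over Eno1 was -1.07 ± 0.17 at P56 and -1.399 ± 0.08 at P1, also without overlap, a difference of 0.33 (exact permutation p = 0.1, adjusted 0.214). The log2 differences of the single genes were 0.95 for Eno3 and 0.58 for Eno1, as given above. Slc2a4 over Slc2a1 was 1.61 ± 0.47 at P56 and 0.79 ± 0.46 at P1 (exact permutation p = 0.211, adjusted 0.263). Pfkm over Pfkl was -1.29 ± 0.44 at P56 and -1.98 ± 0.29 at P1 (exact permutation p = 0.129, adjusted 0.214). Hk2 over Hk1 had the smallest difference, at -1.29 ± 0.43 at P56 and -1.46 ± 0.45 at P1 (exact permutation p = 0.661), and its difference turned to -0.07 without P1 replicate 1 and to -0.06 without P56 replicate 2. A ratio shows unequal change within a pair and not which member changed, and with 3 libraries against 3 the smallest exact p is 0.1.

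**Figure D4:**
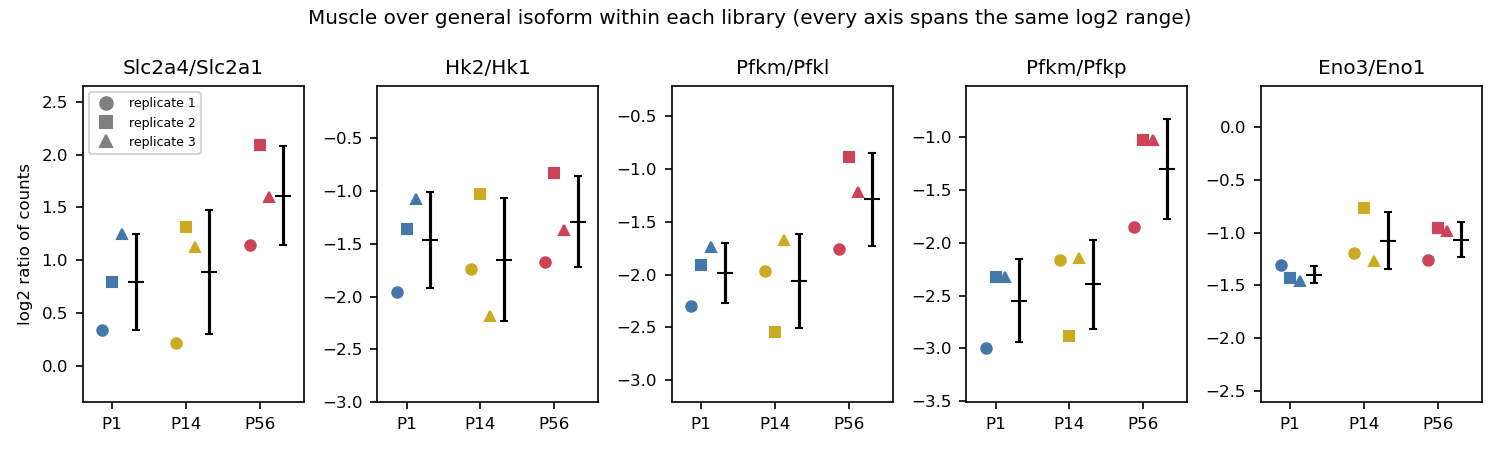
Log2 ratio of muscle to general isoform counts within each library (vertical axis, each panel spanning the same range) at P1, P14 and P56; points are libraries, shapes are replicate numbers and bars are the mean ± SD of 3. The P56 points of Pfkm over Pfkp lie at -1.85 and above and its P1 points at -2.32 and below, while the ages overlap for Hk2 over Hk1.

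The rest of the glucose pathway was read from 42 further genes, of which 41 were in the table. At P56 relative to P1, 3 were called higher and 0 lower, 33 of the 41 log2 differences were above 0, and the median was 0.42. Among all tested regions 1.72% were called higher, 0.806% were called lower and 49.29% were above 0. Pdk2 encodes a kinase that switches off pyruvate dehydrogenase and so spares glucose carbon from oxidation. It had 130, 223 and 145 CPM at P56, against 76.9, 89.8 and 105 CPM at P1, a log2 difference of 0.89 ± 0.18 (SE; edgeR adjusted p = 0.00978). Tpi1, which interconverts the triose phosphates, had 81.9, 120 and 82.7 CPM at P56, against 38.2, 60.3 and 69.8 CPM at P1, a log2 difference of 0.78 ± 0.21 (SE; edgeR adjusted p = 0.0396). Gpi1, which turns glucose 6-phosphate into fructose 6-phosphate, had 185, 211 and 185 CPM at P56, against 137, 147 and 129 CPM at P1, a log2 difference of 0.50 ± 0.14 (SE; edgeR adjusted p = 0.0485). None of these 3 genes, named because they were called, overlapped between the ages. In 10.9% of all tested regions every P56 library lay above every P1 library. Pdk2 missed the threshold without P56 replicate 2 (log2 0.60, edgeR adjusted p = 0.0641). Tpi1 missed it without any single P14 library, P1 replicate 1 or 2, or P56 replicate 2 or 3 (log2 0.54 to 0.86, edgeR adjusted p = 0.0590 to 0.181), and Gpi1 without any single library other than P56 replicate 1 (log2 0.43 to 0.54, edgeR adjusted p = 0.0640 to 0.129). Tpi1 and Gpi1 also missed it with library totals, the peak table's factors or loess offsets, and Pdk2 with loess offsets (log2 0.59, edgeR adjusted p = 0.0918).

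Next in order of p and not called were Gapdh, which oxidises glyceraldehyde 3-phosphate (log2 0.84, edgeR adjusted p = 0.0516; called without P1 replicate 3 or P56 replicate 1), and Ldhd, a lactate dehydrogenase of the D form (log2 0.67, edgeR adjusted p = 0.0559). In all, 17 of the 41 had an unadjusted p under 0.05, and DESeq2 called 1 and gave no adjusted p for 15. These counts moved with the same libraries: without P56 replicate 2, 0 were called and the median was 0.20, and without that library and P1 replicate 1, 4 were called higher and 2 lower with a median of 0.08. Without P1 replicate 1, 1 was called, and without P56 replicate 1, 9 were called higher and 1 lower. With library totals 1 was called higher and 1 lower, and with loess offsets 0 higher and 1 lower. In the order of these settings, the share of all regions called was 0.435, 2.06, 0.737, 4.5, 3.25 and 0.708%, beside 2.53% in the main fit. At P14 relative to P1, 0 of the 41 were called (2 at an unadjusted p under 0.05), and at P56 relative to P14, 0 were called (13 unadjusted). DESeq2 called 0 in both. For these comparisons the share of all regions with such an unadjusted p is not given here. The smallest p belonged to Slc2a10, the transporter GLUT10 (log2 0.61, edgeR adjusted p = 0.556), and Gpi1 (log2 0.33, edgeR adjusted p = 0.558) at P14 relative to P1. At P56 relative to P14 it belonged to Pgam2, the muscle phosphoglycerate mutase (log2 1.05, edgeR adjusted p = 0.287), and Gapdh (log2 0.91, edgeR adjusted p = 0.293).

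The second deposited table, of counts per peak, measured the same loci over regions of open chromatin. It held 20 peaks within 5 kb of the genes. At P56 relative to P1 edgeR called none of them, in a comparison that called 0.444% of 25885 tested peaks. Of the 20, 17 lay above 0 with a median log2 difference of 0.41, beside 0.03 for all tested peaks. An unadjusted p under 0.05 was reached by 4. The shares of all peaks above 0 or under that unadjusted p are not given here. DESeq2 called 77 peaks in all, and near these genes it called 1 of the 5 to which it gave an adjusted p. That one spanned most of Slc2a4 at chr11:69943920-69949677. It had 230, 382 and 247 CPM at P56, against 123, 162 and 192 CPM at P1, without overlap, a log2 difference of 0.85 ± 0.23 (SE; edgeR adjusted p = 0.0632; DESeq2 adjusted p = 0.0269). With edgeR it was called without P1 replicate 3 (adjusted p = 0.0382) and without P56 replicate 1 (adjusted p = 0.0184), and without P56 replicate 2 its difference was 0.59 (adjusted p = 0.410). In the order of these settings 144, 649 and 0 of all peaks were called, beside 115 with every library.

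The Pfkm peak with the smallest p lay inside the gene at chr15:98113703-98116514, 1643 bases past the start whose promoter is printed above. It had 63.05, 155 and 81.8 CPM at P56, against 55.1, 47.7 and 49.9 CPM at P1, a log2 difference of 0.99 ± 0.28 (SE; edgeR adjusted p = 0.0685) without overlap. It was called in edgeR without P1 replicate 1 (adjusted p = 0.0455) and without P56 replicate 1 (adjusted p = 0.0104), whereas without P56 replicate 2 its difference was 0.50 (adjusted p = 0.607). In that order 155, 649 and 0 of all peaks were called. The peak over the Eno3 start, at chr11:70653491-70658732, did not separate the ages: it had 133, 265 and 179 CPM at P56, against 109, 141 and 187 CPM at P1 (log2 0.41 ± 0.24 SE; edgeR adjusted p = 0.398). The smallest-p peaks of Hk2, Hk1, Pfkp and Pkm had log2 differences of 0.64, 0.60, 0.62 and 0.48, and those of Pfkl, Slc2a1 and Eno1 0.28, 0.27 and 0.12, with edgeR adjusted p of 0.293 to 0.846. At P14 relative to P1 edgeR called 0 of the 20 peaks (1 unadjusted), and at P56 relative to P14 0 (7 unadjusted), each beside 0.00773% of all peaks. DESeq2 called 0 of the 20 in both comparisons.

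Neighbouring genes share some of this DNA. The 3′ end of Ybx2, a germ cell Y-box protein gene, lies 682 bases from Slc2a4, and its own TSS region was called higher at P56, with 99.5, 215 and 115 CPM, against 49.97, 71.3 and 79.8 CPM at P1 (log2 1.11, edgeR adjusted p = 0.00844). Its annotated starts lie at least 5958 bases outside the Slc2a4 span, and it followed Slc2a4 over the 9 libraries with a Pearson r of 0.914. Without P56 replicate 2 its difference was 0.69 and not called (edgeR adjusted p = 0.0737). Around Eno3, Pfn1, whose start lies 2526 bases from that of Eno3, differed by 0.85 on the log2 scale (edgeR adjusted p = 0.104), Rnf167 by 0.70 (0.105) and Spag7 by 0.58 (0.179), none called. Senp1, whose start lies 786 bases from the first Pfkm start, differed by -0.19. Starts of antisense transcripts lie 4 bases from that of Slc2a1 and 187 bases from the inner Hk1 start, and counts of open DNA carry no strand, so those regions cannot be assigned to one transcript.

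Over the 9 libraries the muscle isoforms followed each other and some general ones. The Pearson r of log2 CPM was 0.883 for Slc2a4 and Eno3, 0.874 for Slc2a4 and Pfkm, 0.807 for Slc2a4 and Hk2, but 0.964 for Slc2a4 and the general isoform Eno1 and 0.913 for Slc2a4 and Pkm. Pfkp had a negative r with all 9 other genes, from -0.395 with Slc2a1 to -0.043 with Pkm, and Hk1 had an r of 0.051 with Slc2a4. Among about 6055 named genes with a mean count of at least 50, the profile nearest to Slc2a4 was Lsmem2 (r = 0.992), to Pfkm Prpf19 (0.992), to Eno3 Zfp513 (0.99) and to Pkm Lcor (0.993). For the general isoforms it was Myl12b for Slc2a1 (0.932), Lrsam1 for Hk1 (0.971), Scly for Pfkl (0.974), Tmem194b for Pfkp (0.92) and Synpo2l for Eno1 (0.988). These are descriptions over libraries that share ages and signal concentration, and the highest of many r is high by selection.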

How the data were processed

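ATAC-seq libraries of sorted cardiomyocyte nuclei, 3 at each of P1, P14 and P56, were analysed from 2 tables of raw read counts that the authors deposited, 1 per TSS region and 1 per peak, for 33844 regions and 25915 peaks. Per the submitters' processing notes the tools included BWA 0.7.10, MACS 1.4.0, bedtools 2.26 and featureCounts 1.4.2 on GRCm38. The read filters, the pooling for peak calling and the TSS width are not given in the sources used here. Every deposited TSS region had a mean of at least 10 counts, so promoters below that could not be analysed here.

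Both tables were analysed in R 4.3.3 with edgeR 4.0.16. Libraries were scaled by TMM, the package's default expression filter was applied, and all 9 libraries shared a model with a coefficient per age. Contrasts were tested two-sided by quasi-likelihood F tests, p-values were adjusted by Benjamini-Hochberg over all tested regions, and calls were made at 0.05. SE is that of the fit. Within-library ratios used log2 of counts plus 0.5 and an exact permutation test, two-sided. The members and the lists were chosen with earlier results of these data known. All members are named, and from the 42 further genes those called and the 2 with the smallest p among the rest; for peaks, the smallest p per gene. Likeness was searched among named genes with a mean count of at least 50. The nearest profile to Hk2 is not reported here. Alternatives were DESeq2 1.42.0 (its size factors and Wald test), library totals, the other table's factors, no filter, a replicate block, loess offsets (span 0.3), the top-share covariate, and leaving out libraries. The fits were tested on simulated data. Nothing says that same-numbered libraries were paired, and p-values measure the spread between pools of hearts. RefSeq annotation of GRCm38.p6 gave gene spans and starts.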

Additional observations from a re-analysis of the deposited data

How the results depend on the processing

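In P56 vs P1, of the members' values under each alternative, 148 kept their direction and side of the threshold, 17 kept the direction and lost the call, 3 gained one and 10 turned round; in P14 vs P1, 146 held and 34 turned round, and in P56 vs P14, 164 held, 4 gained a call and 12 turned round. The cause was not tested. The values that turned round in P56 vs P1 include those of the 3 called genes, under the covariate. In the TSS table the covariate did not overlap between any ages, and in the peak table it did not overlap between P56 and P1. The P14 libraries were the shallowest, and 3 pools per age limit every call.

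The 853 TSS regions called in P56 vs P1 became 2504 with the peak table's factors, 239 with loess offsets, 0 with the top-share covariate, 292 with DESeq2's Wald test and 147 to 1523 with one library left out. The 292 were 3.55% of the regions to which DESeq2 gave an adjusted p, whereas the 853 were 2.53% of all tested regions. The 4 called in P14 vs P1 became 1 with loess offsets, 0 with the covariate, 1 with the Wald test, 293 with neither P1 replicate 1 nor P56 replicate 2, and 0 to 9 with one library left out. The 1 called in P56 vs P14 became 0 with RLE scaling, 11 with library totals and 22 with the peak table's factors. It became 0 with the covariate, 21 without both libraries and 0 to 101 with a single library left out. The 3 called for timing became 1 with RLE scaling, 1 with loess offsets and 1 with the covariate. They became 0 with the Wald test, 16 without both libraries and 0 to 4 with a single library left out. The 115 peaks called in P56 vs P1 became 47 with the TSS table's factors, 33 with loess offsets, 602 with the covariate, 691 without both libraries and 0 to 649 with one left out.

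Deviations of same-numbered libraries of different ages had an r of -0.07 to 0.20, over 0.1 in 1 of 9 pairs of libraries. Those of differently numbered libraries had an r of -0.25 to 0.23, over 0.1 in 1 of 18 pairs. The numbers were not taken as pairs, and whether same-numbered libraries share a small effect is not settled by these values. With the replicate number as a block, the calls became 1982 and 12 and 76 TSS regions in P56 vs P1, P14 vs P1 and P56 vs P14, 5 for timing and 684 peaks. Under the block Eno1 was called in P56 vs P1 (log2 0.57, edgeR adjusted p = 0.0105), Slc2a4 in P56 vs P14 (log2 1.09, edgeR adjusted p = 0.00303), and the Slc2a4 and Pfkm peaks (edgeR adjusted p = 0.00839 and 0.0141), and Slc2a4 in P14 vs P1 turned to 0.073. Of the 41 further glucose genes, 12 were called higher and 1 lower in P56 vs P1 under the block, where 5.87% of all TSS regions were called.

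With the top-share covariate the P56 vs P1 log2 values turned to -0.55 for Slc2a4, -0.83 for Hk2, -0.10 for Pfkl, -0.19 for Pfkm, -0.44 for Eno1, -0.67 for Eno3, -1.83 for Pkm, -0.52 for Pdk2, -0.14 for Gpi1, -1.10 for Gapdh, 0.49 for Slc2a3 and -1.02 for Ybx2, and for the peaks of Eno3, Eno1, Pkm and Pfkl to -0.47, -0.73, -0.45 and -0.20. In P14 vs P1 they turned to -0.76 for Hk2, -0.53 for Pfkm, -0.23 for Pfkp, -0.59 for Eno1, -0.64 for Eno3 and -0.064 for Gpi1, and in P56 vs P14 to -0.071 for Hk2, -0.11 for Pfkl, -0.032 for Eno3 and -0.25 for Pkm. With the peak table's factors Hk1 turned to -0.0075 in P56 vs P1 and -0.073 in P56 vs P14, Pfkl to -0.097 in P56 vs P14, and Slc2a1, Hk2, Pfkp and Eno1 to -0.030, -0.087, -0.11 and -0.11 in P14 vs P1. With loess offsets Hk1 turned to -0.034 in P56 vs P1 and -0.035 in P56 vs P14, Pfkl to -0.062 in P56 vs P14, Slc2a1, Hk2, Pfkp and Eno1 to -0.0090, -0.059, -0.15 and -0.17 in P14 vs P1, and the Eno1 peak to -0.065. With library totals Hk2, Pfkp and Eno1 turned to -0.025, -0.040 and -0.056 in P14 vs P1 and Pfkl to -0.011 in P56 vs P14. Without both libraries Pkm turned to -0.067 in P56 vs P1, Slc2a1, Hk2 and Eno1 to -0.067, -0.11 and -0.14 in P14 vs P1, Pfkl to -0.029 in P56 vs P14, and the Eno3, Eno1, Pkm and Pfkl peaks to -0.095, -0.42, -0.023 and -0.021.

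With one library left out the log2 value in P56 vs P1 ranged from 0.17 to 0.45 for Slc2a1, 0.27 to 0.65 for Hk2, -0.36 to -0.10 for Pfkp and 0.23 to 0.92 for Pkm, and that of the Pfkm peak from 0.50 to 1.24. In P14 vs P1 it ranged from -0.26 to 0.22 for Slc2a1, -0.37 to 0.36 for Slc2a4, -0.17 to 0.20 for Hk2, -0.0003 to 0.37 for Pfkm, -0.017 to 0.090 for Pfkp, -0.14 to 0.12 for Eno1 and -0.37 to 0.17 for Pkm. In P56 vs P14 it ranged from -0.0002 to 0.14 for Hk1 and -0.026 to 0.095 for Pfkl, and the Eno1 peak in P56 vs P1 ranged from -0.16 to 0.36. The P56 minus P1 difference in log2 ratio ranged from 0.58 to 1.05 for Slc2a4 over Slc2a1, -0.074 to 0.37 for Hk2 over Hk1, 0.49 to 0.93 for Pfkm over Pfkl, 1.02 to 1.52 for Pfkm over Pfkp and 0.28 to 0.43 for Eno3 over Eno1, and without both libraries it was -0.31 for Hk2 over Hk1 and 0.88 for Pfkm over Pfkp. The exact permutation p of Pfkm over Pfkp was above 0.05 without P1 replicate 1, 2 or 3, P14 replicate 1 or 3, or both libraries (0.0607 to 0.0952).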

Other observations

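Slc2a3, which encodes the high-affinity transporter GLUT3, had the lowest P56 vs P1 log2 difference of the 41 further glucose genes, and it was chosen after its values were seen. Its TSS had 79.3, 45.15 and 48.9 CPM at P56, against 87.35, 79.5 and 92.9 CPM at P1. Every P56 library lay below every P1 library, as in 13.2% of all tested regions, though the nearest of them stood at 79.3 and 79.5 CPM. The log2 difference was -0.58 ± 0.20 (SE) and did not pass (edgeR adjusted p = 0.0902). It passed with library totals (log2 -0.71, edgeR adjusted p = 0.0388), with the peak table's factors (log2 -0.86, edgeR adjusted p = 0.00770), with loess offsets (log2 -0.82, edgeR adjusted p = 0.0448) and without P56 replicate 1 (log2 -0.89, edgeR adjusted p = 0.0129), and it turned to 0.49 with the top-share covariate. In the order of the settings in which it passed, 778, 2300, 116 and 359 of all TSS regions were called lower, beside 272 in the main fit. P56 replicate 1 was the P56 library nearest to the P1 values for Slc2a3 as it was for Slc2a4 and Pfkm.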
